A study of Drosophila melanogaster with 20 samples.

Results

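Of 10 genes of protein entry into the endoplasmic reticulum (ER), taken by gene symbol, 8 could be measured in the fly eye disc. The measured genes were Sec61alpha, Sec61beta, Sec63 and TRAM of the protein-conducting channel, Spase12, Spase22-23 and Spase25 of signal peptidase, and Dad1 of oligosaccharyltransferase. Each had exactly 1 probe set assigned to a single gene. SsRbeta, a subunit of the translocon-associated complex, and Ost48, a further oligosaccharyltransferase subunit, had none and were not analysed here. The 8 genes stand among 11982 genes with a single-gene probe set, and all 8 were among the 10263 probe sets that passed the filter on low values. Their Entrez Gene identifiers and chromosome arms are 33905 on 2L for Sec61alpha, 46080 on 2R for Sec61beta, 38819 on 3L for Sec63, 31042 on X for TRAM, 50096 on 3R for Spase12, 42885 on 3R for Spase22-23, 32095 on X for Spase25 and 34159 on 2L for Dad1.

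A secretory protein such as proinsulin begins with a signal peptide, which the signal recognition particle brings to the ER membrane. The chain then passes through the Sec61 channel, signal peptidase removes the signal peptide on the lumenal side, and oligosaccharyltransferase adds a preassembled glycan to asparagines of chains that carry an acceptor site. In the larval eye disc this entry route serves the many membrane and secreted proteins of developing photoreceptors, and several of its genes are known targets of the ER stress response in other systems.

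The samples were eye imaginal discs of 3rd instar Drosophila melanogaster larvae, and RNA of each was hybridised to 1 of 20 Affymetrix arrays. UAS transgenes of human proinsulin were driven by GMR-GAL4, an eye driver known to act in cells posterior to the furrow, so the discs also held cells outside its domain. The C96Y discs expressed proinsulin in which the cysteine of C96Y, needed for a disulphide bond, is replaced by tyrosine, and came from lines Mut-1 and Mut-101. The wild-type proinsulin discs came from lines WT-24 and WT-6, and the non-transgenic discs carried GMR-GAL4 per the labels but no proinsulin transgene. Transgenes were hemizygous and flies were kept at 25 °C. Every line had 2 male and 2 female arrays, called biological replicates in the labels. This gave 8 C96Y, 8 wild-type proinsulin and 4 non-transgenic arrays. Only 2 insertion lines carried each transgene, and transgene levels were not analysed here, so mutation, dose and insertion site cannot be told apart. The labels do not say how many larvae a sample pooled, so p-values measure the spread between these samples.

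Values below are linear array intensities, and differences are log2 changes with standard errors (SE) from limma, in which the first-named group is the one on top. A difference was called when its Benjamini-Hochberg adjusted p over all 10263 probe sets was under 0.05. Intensity also depends on the affinity of each probe set, so levels were compared between samples and not between genes. In whole discs, fewer cells of a type and less RNA per cell cannot be told apart.

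All 17 eye disc marker genes were measured, with a lowest value of 403 units (boss), so the labelled tissue was present in every array. Over all probe sets 11.5% were called higher and 8.58% lower in C96Y relative to wild-type proinsulin discs, the comparison used for all markers here. Of these 17 eye disc genes 2 were called higher and 7 lower. Their summed intensity was 56259 to 61347 in C96Y and 58064 to 65181 in wild-type proinsulin discs. Of 7 measured antennal disc markers 2 were lower, with sums of 15068 to 16064 in C96Y and 15855 to 16688 in wild-type proinsulin discs, and of 6 tested neuroblast and brain markers 2 were lower, with sums of 6919 to 8534 in C96Y and 8352 to 9730.1 in wild-type proinsulin discs. Of 5 tested glial markers 1 was higher and 2 lower, and of 8 haemocyte markers 1 was higher and 1 lower. No marker was listed at 0. None of the 5 tested fat body, 5 ring gland, 6 salivary gland and 5 muscle markers was called. Salivary gland sums were 4275 to 33458 in C96Y and 6975 to 32292 in wild-type proinsulin discs, muscle sums were 3118 to 8782 in C96Y and 3938 to 9337 in wild-type proinsulin discs, and no array exceeded 3 times the median array in either list. Single arrays did so in the fat body and ring gland lists. Fat body sums exceeded 3 times the median array (2224) in non-transgenic male replicate 2 (34245), WT-24 female replicate 1 (22730.5) and Mut-1 female replicate 2 (8119.9), and ring gland sums did so in non-transgenic male replicate 1, WT-6 female replicate 1, WT-24 male replicate 2 and WT-24 female replicate 2 (7974 to 16614, median array 2208). The part of these markers in the results was not tested, and the counts without these arrays are given below.

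The first comparison, of C96Y with wild-type proinsulin discs, sets the mutant chain against the normal one. In it 5 of the 8 genes were higher in C96Y discs and none was lower. These were Sec61beta and Sec63 of the channel, Spase12 and Spase25 of signal peptidase and Dad1 of oligosaccharyltransferase, with rises of 9.37% to 14.8%. Sec61alpha, TRAM and Spase22-23 were not called. The 5 higher genes are 5 of 8 members, against 11.5% of all probe sets called higher, 8.58% lower and 20.1% in either direction. All 8 genes were bright, with a mean log2 intensity above 70.9% to 97.9% of tested probe sets. The 5 called genes had residual SDs of 0.053 to 0.064, and the other members 0.079 to 0.118. The median over tested probe sets was 0.102. A change of a given size is called more readily at a smaller SD, so these shares do not compare like probe sets. The median change of the 8 genes was 0.13, against -0.0028 over all probe sets.

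Sec61alpha, which forms the pore of the channel, did not separate the groups. Its lowest, median and highest intensities were 4779.9, 5112 and 5719 in the 8 C96Y arrays and 4741, 5361 and 5736 in the 8 wild-type proinsulin arrays. Non-transgenic discs had 4462 and 4847 in males and 5793 and 5222 in females. All groups overlapped, and the widest spread was among the non-transgenic discs, where both females lay above both males. The change of -0.031 ± 0.0498 had a 95% interval of -0.14 to 0.076 (limma adjusted p = 0.711).

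Sec61beta, the small tail-anchored subunit of the same channel, had 9544, 9861 and 10188 (lowest, median and highest of 8) in C96Y discs and 7804, 8531 and 9117 in wild-type proinsulin discs. Non-transgenic discs had 7970.1 and 8528 in males and 8724 and 9089 in females. Every C96Y array lay above every one of the 12 other arrays, which held for 1.64% of all probe sets, while 0.37% were wholly lower in C96Y. Sec61beta rose by 0.20 ± 0.0294 on the log2 scale, an increase of 14.8% (limma adjusted p = 0.000506), and the 4 differences between a C96Y and a wild-type proinsulin line lay between 0.19 and 0.21.

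Sec63, a membrane J-domain protein that recruits the chaperone BiP to the channel, had 3174, 3362 and 3599 in C96Y discs and 2919.9, 3039 and 3204 in wild-type proinsulin discs, as lowest, median and highest. Non-transgenic discs had 3049 and 3309.6 in males and 3175 and 3337 in females. Of the 8 C96Y arrays 7 exceeded the highest wild-type proinsulin array, while Mut-101 female replicate 1 fell within that range. Sec63 rose by 0.14 ± 0.0288 (limma adjusted p = 0.00473), with line differences of 0.10 to 0.18.

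TRAM, a membrane protein next to the channel that contacts entering chains in mammals, had 5648, 6383 and 7007 in C96Y discs and 6482, 6766 and 7007 in wild-type proinsulin discs, as lowest, median and highest. Non-transgenic discs had 6107 and 6811 in males and 7303 and 7809.6 in females. Of the C96Y arrays 4 lay below the lowest wild-type proinsulin array and none above the highest, and the non-transgenic values spread more widely than the 8 wild-type proinsulin values. The change was -0.092 ± 0.0362 and not called (limma adjusted p = 0.0923), with a 95% interval of -0.17 to -0.014. All 4 line differences were negative, -0.10 to -0.081, a pattern shown by 27.2% of all probe sets. Without Mut-1 female replicate 1 the change was -0.12 and was called (adjusted p = 0.0183). The TRAM probe set is of a type whose probes can match several transcripts.

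Spase12, a small non-catalytic subunit of signal peptidase, had 8156, 8493 and 8933 in C96Y discs and 7336, 7662 and 8079 in wild-type proinsulin discs, as lowest, median and highest. Non-transgenic discs had 7654 and 8061 in males and 7639.7 and 8130.1 in females. As with Sec61beta, all 8 C96Y arrays lay above the 12 others, but the gap was narrow, 8156 in the lowest C96Y array against 8130.1 in the highest other array. Spase12 rose by 0.15 ± 0.0254, or 10.7% (limma adjusted p = 0.00159). Spase12 and Sec61beta were the 2 of 8 genes whose C96Y and wild-type proinsulin arrays did not overlap, against 2.28% of all probe sets that were wholly higher in C96Y and 0.692% wholly lower.

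Spase25, another non-catalytic subunit of the enzyme, had 5994, 6615 and 7069.5 in C96Y discs and 5319.7, 5579 and 6288 in wild-type proinsulin discs, as lowest, median and highest. Non-transgenic discs had 4999 and 5157 in males and 5900.3 and 6438 in females. The groups overlapped, with 5 of 8 C96Y arrays above the highest wild-type proinsulin array and all 8 above the wild-type proinsulin median. Within each sex the 4 C96Y arrays lay above the 4 wild-type proinsulin arrays. This held for the same 5 genes that were called, against 3.55% of all probe sets wholly higher and 1.42% wholly lower within both sexes. Since the calls came from the same arrays, this separation is no independent result. Spase25 rose by 0.19 ± 0.0278, or 14.1% (limma adjusted p = 0.000454).

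Spase22-23, the remaining measured signal peptidase subunit, had 2140.4, 2449 and 3046 in C96Y discs and 2110.3, 2531 and 2917 in wild-type proinsulin discs, as lowest, median and highest. Non-transgenic discs had 2724 and 2308 in males and 2321 and 2649 in females. The groups overlapped over most of their range, and the highest C96Y array was Mut-1 female replicate 1. The change was -0.045 ± 0.0547 with a 95% interval of -0.16 to 0.073 (limma adjusted p = 0.611), so a rise of the size seen for Spase12 lies outside this interval. Of the 4 line differences 2 were positive and 2 negative.

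Dad1, a small subunit of oligosaccharyltransferase, had 6966, 7222 and 8209 in C96Y discs and 6495, 6675 and 7083 in wild-type proinsulin discs, as lowest, median and highest. Non-transgenic discs had 6419 and 6838 in males and 6709 and 7096 in females. Of 8 C96Y arrays 6 exceeded the highest wild-type proinsulin array, the exceptions being both Mut-101 females, and the highest value of all was Mut-1 male replicate 2. Dad1 rose by 0.13 ± 0.0259, or 9.37% (limma adjusted p = 0.00375). Its line differences spanned 0.068 to 0.19, the widest span among the 5 called genes.

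**Figure D1:**
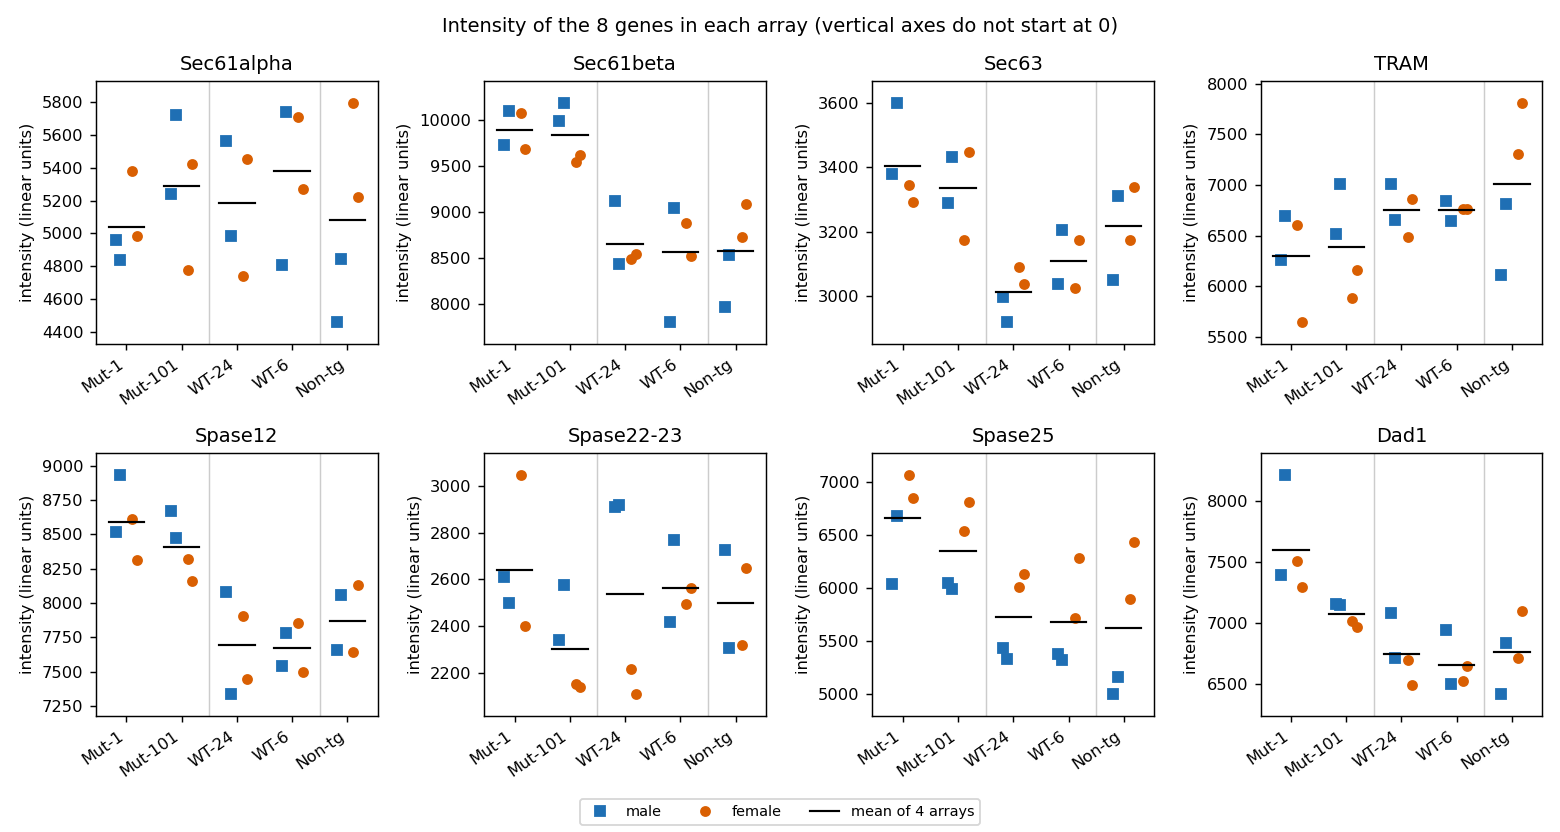
Intensity (linear units, vertical axes not from 0) of the 8 genes in each of the 20 arrays, by line, with squares for males, circles for females and a bar at the mean of 4 arrays. Every Mut-1 and Mut-101 point of Sec61beta and Spase12 lies above all points of WT-24, WT-6 and the non-transgenic discs, while the points of Sec61alpha and Spase22-23 intermingle.

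All 4 line differences were positive for each of the 5 called genes, as for 26.8% of all probe sets. The genes were called on the mean of these same differences, so their shared sign is no separate result. The calls of these 5 genes in this comparison also held when any 1 of the 20 arrays was left out, including Mut-101 male replicate 2, the array of highest median intensity. With 1 mean per line as the unit the changes of the 5 genes were the same (0.13 to 0.20), but 2 residual degrees of freedom remained and 0 of 8 genes were called (limma adjusted p of 0.133 to 0.234 for the 5). In that setting 6 of 8 genes had an unadjusted p under 0.05, and the share of all probe sets is not given. In the main fit 6 of 8 genes and 3377 of all 10263 probe sets had an unadjusted p under 0.05. With arrays centred on their medians the changes of the 5 were 0.13 to 0.19, their median SE was 0.0533 in place of 0.0278, and 1 of 8 was called, Sec61beta. With the number in the descriptions as a replicate block their changes were 0.12 to 0.21, and the calls of Spase12 (0.13, adjusted p = 0.0518) and Dad1 (0.12, adjusted p = 0.0845) ended. Leaving out line Mut-1 ended the calls of Sec63 (0.12) and Dad1 (0.078), and leaving out WT-24 ended that of Sec63 (0.12). Without the arrays high in ring gland markers those of Sec63 (0.12) and Dad1 (0.11) ended, and without the arrays high in fat body markers the same 5 genes were called, at 0.14 to 0.20.

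C96Y discs were next compared with non-transgenic discs, which shows the mutant transgene against none. Of the 8 genes 4 were higher and none lower, against 6.8% of all probe sets higher, 4.74% lower and 11.5% called in either direction. Spase25 rose by 0.21 ± 0.0341 (limma adjusted p = 0.00134) and Sec61beta by 0.20 ± 0.036 (adjusted p = 0.00312). Dad1 rose by 0.12 ± 0.0317 (adjusted p = 0.0326) and Spase12 by 0.11 ± 0.0311 (adjusted p = 0.0361). Sec63 was not called here, with a change of 0.067 ± 0.0352 and an interval of -0.0095 to 0.14 (adjusted p = 0.239). TRAM had -0.14 ± 0.0444 (adjusted p = 0.0579), and it was called lower without Mut-1 female replicate 1 (-0.17) or without non-transgenic male replicate 1 (-0.18). Sec61alpha (0.028) and Spase22-23 (-0.022) were near 0. The groups did not overlap for Spase12 and Sec61beta, as for 3.46% of all probe sets in that direction and 1.81% in the other.

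With 4 non-transgenic arrays the smaller of these calls did not hold on omission of many of the single arrays. The call of Spase12 ended without any 1 of 8 arrays, which were non-transgenic male replicates 1 and 2, non-transgenic female replicate 1, Mut-101 male replicate 1, both Mut-101 females, Mut-1 male replicate 2 and Mut-1 female replicate 1 (changes of 0.088 to 0.13, adjusted p up to 0.130). The call of Dad1 ended without any 1 of 8 arrays, which were replicate 1 of the non-transgenic males and females, all 4 Mut-101 arrays, Mut-1 male replicate 2 and Mut-1 female replicate 1 (0.093 to 0.12, adjusted p up to 0.12). Spase25 and Sec61beta kept their calls without any 1 array, and lost them after median centring at changes of 0.23 and 0.22 (adjusted p = 0.102 for Spase25 and 0.0724 for Sec61beta). With the descriptions' numbers as a replicate block Spase12 (0.14) and Dad1 (0.13) were not called. Without the arrays high in fat body markers 2 of the 8 genes were called, while Spase12 (0.14) and Dad1 (0.14) had larger changes than with all arrays and were not called. Without those high in ring gland markers 2 were called as well, and Spase12 (0.092) and Dad1 (0.093) were not.

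The effect of the normal protein was read from wild-type proinsulin against non-transgenic discs. None of the 8 genes was called by limma and none reached an unadjusted p under 0.05, where 0.107% of all probe sets were called (0.0487% higher and 0.0585% lower), and 733 probe sets had an unadjusted p under 0.05. Changes ran from -0.072 for Sec63 to 0.059 for Sec61alpha. For the genes called in C96Y discs the 95% intervals were -0.073 to 0.082 for Sec61beta, -0.049 to 0.098 for Spase25, -0.10 to 0.031 for Spase12, -0.082 to 0.055 for Dad1 and -0.15 to 0.0043 for Sec63. The 3 comparisons share arrays with one another, so their values for a gene are not independent.

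**Figure D2:**
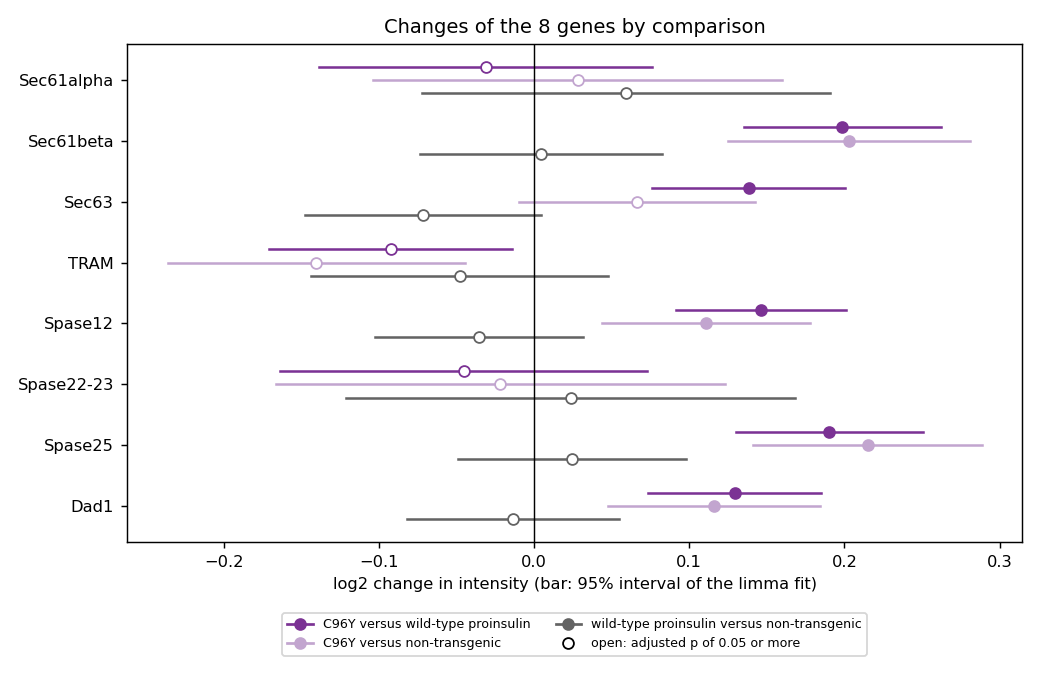
log2 changes of the 8 genes (points) with 95% intervals of the limma fit (bars) for C96Y against wild-type proinsulin, C96Y against non-transgenic and wild-type proinsulin against non-transgenic discs. Filled points are called: 5 genes in the first comparison, 4 in the next and none in the last, where the intervals all include 0.

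The C96Y lines were then compared with the wild-type proinsulin lines one at a time. Mut-1 discs had 5 of the 8 genes higher, against 9.89% of all probe sets higher, 8.03% lower and 17.9% in either direction. Mut-101 discs had 3 higher, against 4.78% of all probe sets higher, 2.59% lower and 7.38% in either direction. Sec61beta averaged 9896 ± 218 in Mut-1 and 9835 ± 306 in Mut-101 discs, against 8648 ± 315 in WT-24 and 8560.2 ± 550 in WT-6 discs (SD, n = 4 each). Its changes in the C96Y lines were close, 0.20 ± 0.036 in Mut-1 and 0.19 ± 0.036 in Mut-101. Spase12 changed by 0.16 ± 0.0311 in Mut-1 and 0.13 ± 0.0311 in Mut-101 discs, and Spase25 by 0.22 ± 0.0341 and by 0.16 ± 0.0341 in the same lines (limma adjusted p of 0.000501 to 0.0232 for these genes).

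Dad1 and Sec63 were called in Mut-1 and not in Mut-101. Dad1 averaged 7599 ± 415 in Mut-1 and 7071 ± 93.8 in Mut-101 discs, against 6748 ± 245 in WT-24 and 6655 ± 203 in WT-6 discs (SD, n = 4 each). Its change was 0.18 ± 0.0317 in Mut-1 (limma adjusted p = 0.00151) and 0.078 ± 0.0317 in Mut-101 (adjusted p = 0.156). Sec63 changed by 0.15 ± 0.0352 in Mut-1 (adjusted p = 0.00875) and had 0.12 ± 0.0352 in Mut-101 (adjusted p = 0.0504), just above 0.05. Its Mut-1 call ended without Mut-1 male replicate 2 (0.13), and its Mut-101 change was called without non-transgenic male replicate 1 or 2, WT-6 male replicate 2 or Mut-101 female replicate 1 (0.12 to 0.15). Of the other members, TRAM had -0.10 ± 0.0444 in Mut-1 and -0.082 ± 0.0444 in Mut-101, Sec61alpha -0.065 ± 0.0609 in Mut-1 and 0.0026 ± 0.0609 in Mut-101, and Spase22-23 0.052 ± 0.067 in Mut-1 and -0.14 ± 0.067 in Mut-101, none of them called. Without Mut-1 female replicate 1 TRAM was called lower in Mut-1 discs (-0.16).

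Set directly against Mut-101, Mut-1 discs showed no call among the 8 genes, where 3.49% of all probe sets were called (2.16% higher and 1.33% lower). The difference was 0.10 ± 0.0366 for Dad1 (limma adjusted p = 0.184) and 0.19 ± 0.0774 for Spase22-23 (adjusted p = 0.245), the 2 genes with an unadjusted p under 0.05. Of all 10263 probe sets 1515 had an unadjusted p under 0.05 in this comparison. Spase22-23 averaged 2639 ± 285 in Mut-1 and 2303 ± 205 in Mut-101 discs (SD, n = 4 each), with Mut-1 female replicate 1 the highest of all arrays. The intervals of the Mut-1 minus Mut-101 difference were -0.081 to 0.099 for Sec61beta, -0.046 to 0.11 for Spase12 and -0.059 to 0.12 for Sec63. WT-24 against WT-6 gave no call and no unadjusted p under 0.05 among the 8 genes, with changes of -0.052 for Sec61alpha to 0.02 for Dad1, where 0.955% of all probe sets were called (0.594% higher and 0.361% lower). In Mut-101 against wild-type proinsulin discs the call of Spase12 ended without any 1 of WT-24 female replicate 2 and the 4 Mut-101 arrays (0.12 to 0.14), and that of Spase25 without either Mut-101 male or Mut-101 female replicate 2 (0.14 to 0.16). Leaving out line WT-6 ended the Mut-101 call of Spase12 (0.13), and leaving out WT-24 ended those of Spase25 in Mut-101 (0.16) and Sec63 in Mut-1 (0.13). Without the arrays high in ring gland markers 4 of the 8 genes were called in Mut-1 and 0 in Mut-101, where Sec61beta had 0.19, Spase25 0.14 and Spase12 0.11. Without those high in fat body markers 5 were called in Mut-1 and 2 in Mut-101, where Spase25 had 0.15. With the descriptions' numbers as a replicate block 0 were called in Mut-101, where Spase25 and Sec61beta had 0.19 each and Spase12 0.077.

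**Figure D3:**
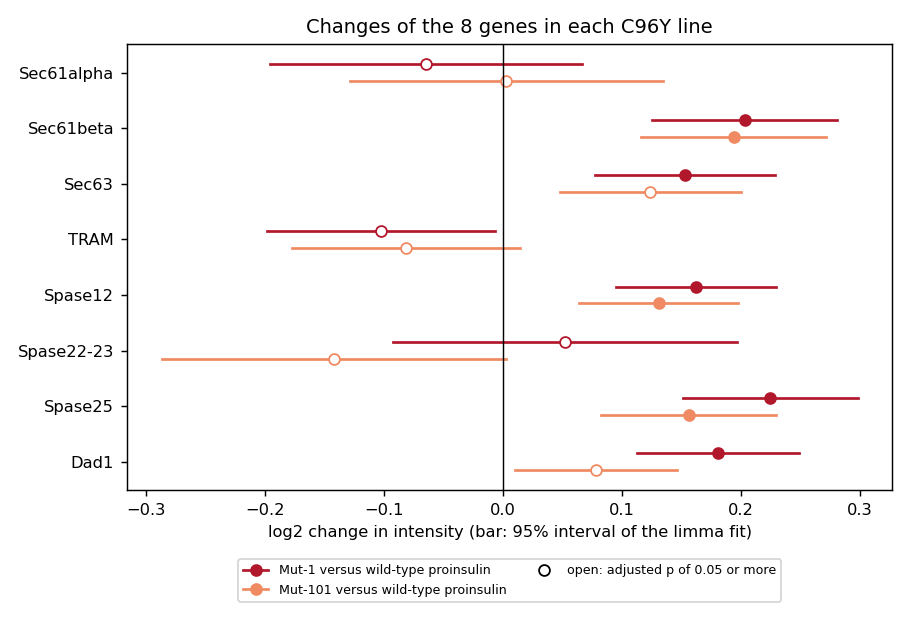
log2 changes of the 8 genes (points) with 95% intervals of the limma fit (bars) in Mut-1 and in Mut-101 discs, each against the 8 wild-type proinsulin arrays. Filled points are called, and Sec61beta lies at almost the same change in both lines, while the points of Dad1 and Spase22-23 lie farthest apart.

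Male discs were set against female discs over all 5 lines. Spase25, which lies on the X chromosome, was lower in males and was the 1 gene called among the 8, against 4.56% of all probe sets lower, 7.73% higher and 12.3% in either direction. Spase25 had 6035 and 6686 in males against 7069.5 and 6852 in females of Mut-1, and 6045 and 5994 in males against 6544 and 6814 in females of Mut-101. It had 5438 and 5327 in males against 6010 and 6136 in females of WT-24, and 5381 and 5319.7 in males against 5719 and 6288 in females of WT-6. Non-transgenic discs had 4999 and 5157 in males against 5900.3 and 6438 in females. In each of the 5 lines both males lay below both females, as for 1.41% of all probe sets, while in 1.3% both males lay above. Over the pooled lines the sexes overlapped for each of the 8 genes (0.565% of probe sets were wholly lower and 0.312% wholly higher in males). Spase25 fell by 0.18 ± 0.0249 on the log2 scale in males, or 11.7% (limma adjusted p = 0.000547), and the line differences ran from -0.28 in non-transgenic to -0.13 in Mut-1 discs.

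Of 1359 tested X chromosome genes 21.4% were lower and 11.3% higher in males, and their median change was -0.022, against 0.017 for 6558 genes on the large autosomal arms. A change below that of Spase25 was found in 14.5% of the X chromosome genes and 1.78% of the autosomal genes. TRAM, the other X-linked member, had 0.0099 ± 0.0324 (limma adjusted p = 0.876). Spase22-23 had 0.12 ± 0.049 (adjusted p = 0.132), and in WT-24 discs both males (2909.7 and 2917) lay well above both females (2218 and 2110.3). It was called higher in males without Mut-1 female replicate 1 (0.15). The direction of calls between the sexes moved with array scaling, with 62.9% of all called probe sets higher in males as deposited and 14.1% after median centring, while Spase25 was called lower under both. Sec61alpha (-0.046), Sec61beta (-0.008), Sec63 (0.0036), Spase12 (0.02) and Dad1 (0.028) were not called.

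The C96Y effect was also estimated in each sex. Sec61beta had 0.22 ± 0.0416 in males and 0.18 ± 0.0416 in females, Spase25 0.20 ± 0.0394 in males and 0.18 ± 0.0394 in females, and Spase12 0.17 ± 0.0359 in males and 0.12 ± 0.0359 in females. Sec63 had 0.17 ± 0.0407 in males and 0.10 ± 0.0407 in females, and Dad1 0.13 ± 0.0366 in males and 0.13 ± 0.0366 in females. All 5 were thus positive in both sexes. TRAM had -0.037 ± 0.0512 in males and -0.15 ± 0.0512 in females, and Spase22-23 -0.13 ± 0.0774 in males and 0.042 ± 0.0774 in females. The interaction of C96Y and sex called 0 of the 8 genes and 0% of all probe sets with limma, and 0 of the 8 had an unadjusted p under 0.05, while 343 of all probe sets did. For Sec61beta the interval of the male minus female effect was -0.083 to 0.17, and for TRAM it was -0.046 to 0.27.

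Correlations over the arrays were described for the 5 genes called in C96Y discs. These genes were chosen for a rise in the same C96Y arrays. Positive correlations among them over all arrays, and lower ones with uncalled genes, were therefore largely fixed by that choice. Their 10 pairwise Pearson correlations of log2 intensity over 20 arrays ran from 0.55 (Spase12 with Spase25) to 0.88 (Spase12 with Sec61beta), with a median of 0.73. After each line and sex mean was subtracted the same 10 pairs had a median of 0.54 and a range of 0.15 to 0.72, so arrays of a group that were higher in one gene tended to be higher in the others. Pairs of a called and an uncalled gene ran from -0.24 to 0.30 over the arrays, and within groups from -0.24 to 0.66 with a median of 0.30. Within groups TRAM correlated at 0.61 with Dad1 and 0.61 with Sec63, while its C96Y change was negative and theirs positive. These correlations are descriptions: the 20 arrays share their groups and their array-wide scale, which the within-group values still contain.

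**Figure D4:**
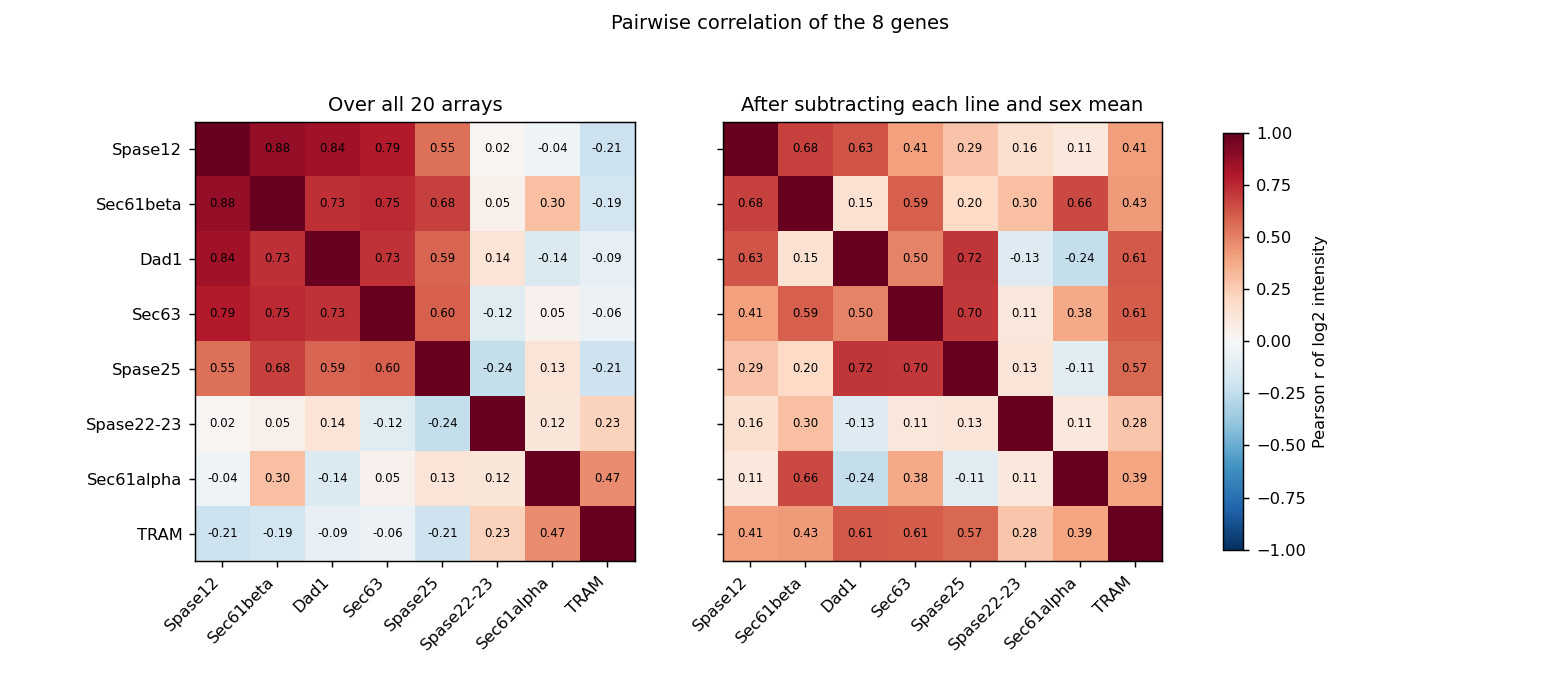
Pearson correlation of log2 intensity for each pair of the 8 genes, over all 20 arrays and after subtraction of each line and sex mean. Pairs of the 5 called genes, which were chosen for a rise in the same C96Y arrays, had 0.55 to 0.88 over all arrays. Within groups some of these pairs were weaker (0.15 for Sec61beta with Dad1).

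Among 8002 other named tested genes, those whose profiles were most like the mean standardised profile of the 8 genes over the 20 arrays were Spp, sel, Sec24CD, eca and path, with correlations of 0.93, 0.91, 0.87, 0.87 and 0.87. Spp encodes the signal peptide peptidase of the ER membrane, Sec24CD a coat subunit of the vesicles that leave the ER, eca a cargo receptor of the p24 family and path an amino acid transporter. Their changes in C96Y relative to wild-type proinsulin discs were 0.16 for Spp, 0.34 for sel, 0.30 for Sec24CD, 0.20 for eca and 0.40 for path. These genes were picked for likeness over the same arrays, so their changes are no independent result.

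The other genes of the entry pathway were described from 6 lists of 50 genes, of which 44 were tested. In C96Y relative to wild-type proinsulin discs 15 were higher, 2 lower and 27 not called, or 34.1% higher and 4.55% lower, against 11.5% higher and 8.58% lower over all probe sets, and their median change was 0.064. Of the signal recognition particle and its receptor, which bring the ribosome to the membrane, 3 of 7 tested genes were higher. SrpRalpha, the receptor subunit that binds the particle, averaged 5038 ± 250 in C96Y and 4306 ± 213 in wild-type proinsulin discs (SD, n = 8 each). It rose by 0.23 ± 0.0417 (limma adjusted p = 0.00239), and the particle proteins Srp72 (0.14) and Srp14 (0.13) rose too. Srp72 averaged 3208 in Mut-1 discs, above WT-24 (2943) and below WT-6 (3287) and non-transgenic discs (3322). In Mut-101 discs Srp72 averaged 3650.

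Of 6 other genes of the translocon and its partners 1 was higher, CG8860 (0.14 ± 0.0266, limma adjusted p = 0.00287), which is similar in sequence to Sec61gamma, the third channel subunit. Since probes may not separate near-identical copies, this value is uncertain. Sec61gamma itself had 0.018 and was not called, so of the channel subunits with a probe set Sec61beta was called and Sec61alpha and Sec61gamma were not. Both other genes of signal peptide processing were higher. The catalytic signal peptidase subunit twr rose by 0.068 ± 0.0205 (adjusted p = 0.0339) and Spp by 0.16 ± 0.0425 (adjusted p = 0.0172).

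Of 6 other oligosaccharyltransferase genes 2 were higher, Ostgamma (0.14 ± 0.0279) and kud (0.12 ± 0.0195), at changes near that of Dad1. The enzymes that build the glycan on its lipid carrier held Pmm2 and Alg7, the genes of largest change among the 44, with 5 of 14 higher and 1 lower. Pmm2, a phosphomannomutase that supplies the mannose donor, averaged 2837 ± 372 in Mut-1 and 1943 ± 129 in Mut-101 discs, against 1589.6 ± 54.5 in WT-24, 1529 ± 39 in WT-6 and 1595 ± 168 in non-transgenic discs (SD, n = 4 each). Pmm2 rose by 0.59 ± 0.0543 (limma adjusted p = 1.04e-05). Alg7, which starts the glycan, averaged 1543 ± 101 in Mut-1 and 1023 ± 68.4 in Mut-101 discs, against 961 ± 67.5 in WT-24 and 862 ± 33.9 in WT-6 discs (SD, n = 4 each). Alg7 rose by 0.46 ± 0.0443 (adjusted p = 1.33e-05), and the transferase genes Alg12 (0.30), Alg14 (0.20) and Alg1 (0.14) rose by less. Alg10, which in yeast adds the terminal glucose, fell by 0.11.

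Of 9 genes of the ER membrane protein complex, an insertase for membrane proteins, EMC3 (0.18) and EMC5 (0.11) were higher and EMC10 was lower. EMC10 averaged 3822 ± 228 in C96Y and 4431 ± 136 in wild-type proinsulin discs (SD, n = 8 each) and fell by 0.22 ± 0.0324 (limma adjusted p = 0.000562). Some of these calls rested on single arrays: Srp72 and twr each lost theirs on omission of any of 10 arrays, Alg10 of any of 13 and EMC5 of any of 15. Without line Mut-1 5 of the 44 genes were called, and EMC5 turned to -0.051, not called.

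Against non-transgenic discs 7 of the 44 genes (15.9%, against 6.8% of all probe sets) were higher in C96Y, led by Pmm2 (0.56), Alg7 (0.45), Alg12 (0.30) and Alg14 (0.26), and EMC10 was lower (-0.19, 2.27% against 4.74%). In this comparison 0 of 7 genes of the signal recognition particle and receptor were called, and 0 of 2 of signal peptide processing. In each of these lists 2 genes had an unadjusted p under 0.05, as did 2850 of all 10263 probe sets. Wild-type proinsulin discs had 0 of the 44 called by limma relative to non-transgenic discs (0 at an unadjusted p under 0.05), and WT-24 discs had 0 relative to WT-6 discs (4 at an unadjusted p under 0.05, against 905 of all 10263 probe sets). Relative to wild-type proinsulin discs, Mut-1 discs had 16 higher and 1 lower (36.4% and 2.27%, against 9.89% and 8.03% of all probe sets) and Mut-101 discs 4 higher and 1 lower (9.09% and 2.27%, against 4.78% and 2.59%). In Mut-101 discs Srp72, SrpRalpha, CG8860 and Pmm2 were higher and EMC10 was lower, while Alg7 and Alg12 were not called. The genes higher in Mut-1 discs included Pmm2, Alg7, Alg12 and EMC5, and EMC10 was lower. In addition 4 genes (9.09%, against 2.16% of all probe sets) were higher in Mut-1 than in Mut-101, Alg7 (0.59), Pmm2 (0.54), Alg12 (0.32) and EMC5 (0.32). Between males and females Sec61gamma (0.12) and the mannosyltransferase gene Alg9 (0.095) were higher and Alg14 lower (-0.20) in males, or 4.55% higher and 2.27% lower against 7.73% and 4.56% of all probe sets, and with arrays centred on their medians Alg9 turned to -0.0029, not called.

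**Figure D5:**
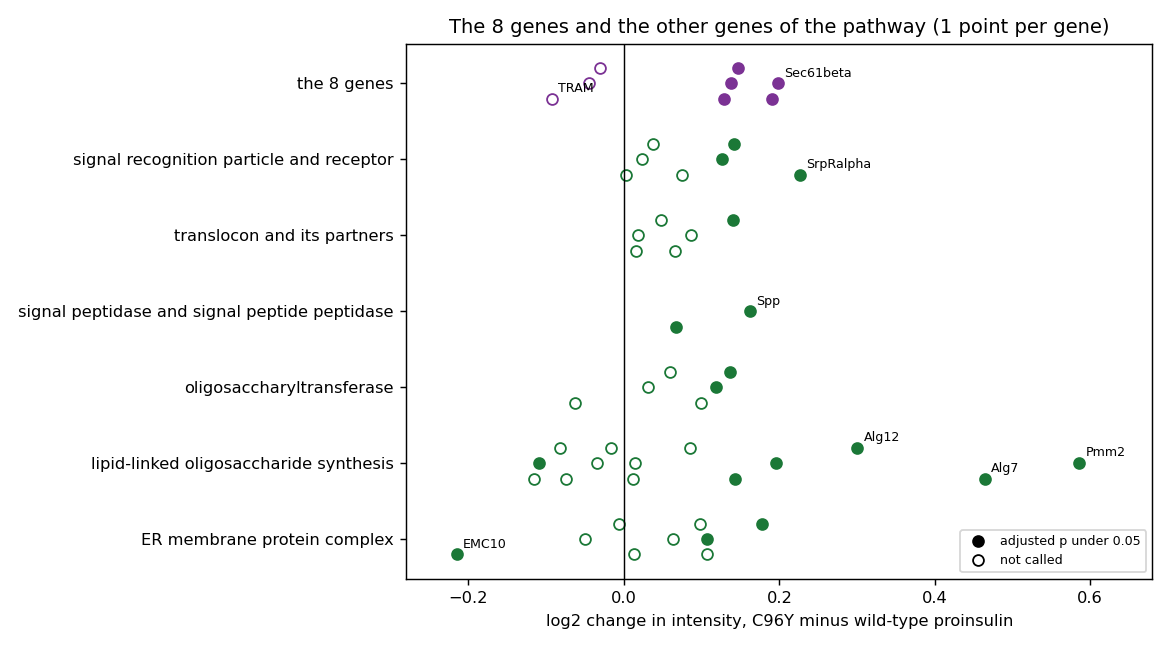
log2 change in C96Y relative to wild-type proinsulin discs for the 8 genes and the 44 other tested genes of 6 pathway lists, 1 point per gene, filled where called. The lists centre near or above 0, with Pmm2 and Alg7 farthest to the right and EMC10 farthest to the left.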

How the data were processed

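Total RNA of 20 eye disc samples was amplified, labelled and hybridised, 1 array per sample, per the labels' protocols. The deposited values are intensities, 1 per probe set and array on a linear scale, made by the authors with MAS5 per the submitters' processing notes, which give no version, settings or scaling target. Array means lay between 1194 and 1249.8 and array medians between 213 and 286, so arrays appear to be scaled to a common mean, and a difference can depend on that scale. Scanner files and detection calls were not used here, so no background limit is given, and the number of arrays limits the precision.

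The deposited intensities were turned to log2 values with no further normalization. Of 18952 probe sets 183 controls were left out, and names came from the platform annotation (13647 probe sets with 1 gene, 402 with several and 4720 with none), of which 13544 were matched to current RefSeq gene names by Entrez identifier with 0 symbols changed. Each gene was represented by its single-gene probe set of highest mean, and the upper 60% of probe sets by mean log2 intensity, 10263, were tested. limma 3.58.1 in R 4.3.3 fitted 1 mean per line and sex (lmFit, eBayes with trend), with line means weighted equally and 10 residual degrees of freedom. p-values were adjusted by Benjamini-Hochberg over all tested probe sets and called under 0.05, and intervals are at 95%. The fit was tested on simulated data with independent noise, in which 50 probe sets were changed in C96Y at each size. At a true log2 change of 0.15 it called 24% of them, at 0.3 68%, at 0.6 90% and at 1 100%. In the data 2058 probe sets were called in C96Y against wild-type proinsulin discs, far more than were changed in the simulation. With fewer changed probe sets the Benjamini-Hochberg cut is stricter. The members called in that comparison also had residual SDs of 0.053 to 0.064, below the median of 0.102 over tested probe sets. These shares therefore do not give the power for the members. Changes of the size seen here could be missed, but how many is not known. Arrays of a line and sex correlated at 0.978 to 0.993, and 0 pairs of arrays were identical.

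All members are named. Of the other pathway genes, each one called in C96Y against wild-type proinsulin discs is named, and some or all of the called genes in each other comparison with calls. The members, lists and tests were chosen with earlier results of these data known. From the pathway lists 4 spellings that belong to unrelated fly genes (Rpn1, Srp54, emc and Pgm2a) were left out after the data were seen. Alternatives were median centring, quantile normalization, a pseudocount of 50, other filters and models, replicate blocks, and omission of single arrays, of lines and of arrays high in other tissues' markers. Labels carry 2 sets of replicate numbers, in titles and in descriptions, and the titles' numbers are used for names. Over 45 pairs of groups the deviations of arrays with the same title number correlated at -0.471 to 0.293, and over 28 pairs of groups that share a description number at -0.375 to 0.293, so neither set was taken to pair samples.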

Additional observations from a re-analysis of the deposited data

Results flagged for a closer look

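Sec61beta in the 4 WT-24 discs had 1 array apart from the rest. Male replicate 1 had an intensity of 9117, while the other 3 arrays lay between 8436 and 8546. Its distance from them exceeded the 95% critical value of Dixon's test in 1 of 40 groups of 4 arrays examined for the 8 genes, and chance marks about 1 in 20 groups. All 8 C96Y arrays lay above this array too, and Sec61beta stayed called in C96Y against wild-type proinsulin discs when it was left out.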

How the results depend on the processing

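Counts below are of the 8 genes, for C96Y against wild-type proinsulin (5 called), C96Y against non-transgenic (4), Mut-1 (5) and Mut-101 (3) against wild-type proinsulin discs, and of the other pathway genes called in C96Y against wild-type proinsulin discs (17). With arrays centred on their medians they were 1, 0, 1, 0 and 4, with changes of the called genes of 0.13 to 0.19, 0.13 to 0.23, 0.16 to 0.24 and 0.11 to 0.17 in the 4 comparisons (0.13 to 0.20, 0.11 to 0.21, 0.15 to 0.22 and 0.13 to 0.19 as deposited) and median SEs of 0.0533 to 0.0654 in place of 0.0278 to 0.0341, and Alg9 in males against females turned to -0.0029. After quantile normalization the genes called as deposited kept their calls in the 4 comparisons (limma adjusted p up to 0.0106, 0.0253, 0.0155 and 0.0163). Without the filter on low values, or with only the groups compared, the calls against non-transgenic discs did not all hold (limma adjusted p up to 0.0525 and 0.0611). With 1 mean per line as the unit all 5 counts were 0, at the same changes with 2 residual degrees of freedom for C96Y and 1 for a single line. Without line Mut-1 3 of the 8 genes and 5 pathway genes were called against wild-type proinsulin and 2 of the 8 against non-transgenic discs, and EMC5 turned to -0.051. Without line WT-24 11 pathway genes were called. Alternatives chosen after seeing the data left out arrays: without those high in fat body markers 11 pathway genes and, against non-transgenic discs, 2 of the 8 were called (changes of the 4 called with all arrays of 0.14 to 0.23), and without those high in ring gland markers 3 of the 8 and 9 pathway genes, 2 of the 8 against non-transgenic discs and 0 in Mut-101 (0.11 to 0.19). Where changes moved, the cause was not tested. The share of all probe sets called is not given for these settings or for the replicate blocks below. Whether the lost calls were particular to these genes was therefore not tested.

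With the titles' numbers as a replicate block 5, 4, 5 and 4 of the 8 genes were called in the same 4 comparisons, Sec63 being added in Mut-101 discs. With the descriptions' numbers as a replicate block the counts were 3 and 2 for C96Y against wild-type proinsulin and non-transgenic discs and 0 for Mut-101, with 6 pathway genes, at changes of 0.12 to 0.21, 0.13 to 0.22 and 0.077 to 0.19.

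With any 1 array left out, 5 to 6 of the 8 genes were called in C96Y against wild-type proinsulin, 2 to 4 against non-transgenic, 4 to 6 in Mut-1, 1 to 4 in Mut-101 and 1 to 2 in male against female discs, and 13 to 19 pathway genes. Over all 10263 probe sets the calls in these 5 comparisons ranged from 1491 to 2160, 572 to 1206, 1072 to 1970, 234 to 806 and 702 to 1515. Of all probe sets called in males against females 62.9% were higher, 14.1% after median centring and 37.3% after quantile normalization. In C96Y against non-transgenic discs the share was 59.0% and 75.5% after median centring. The additive model gives no interaction, and 1 mean per line gives no value for Mut-1 against Mut-101 or WT-24 against WT-6.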
